A study of Mus musculus with 2 samples.

Results

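p38 mitogen-activated protein kinase (MAPK) is the pathway the study tied to FGF9, and its core is described here as RNA in single THY-1+ germ cells of the mouse. The 9 genes taken are the 4 p38 isoforms Mapk14, Mapk11, Mapk12 and Mapk13, the p38 kinases Map2k3 and Map2k6, and the targets Mapkapk2, Mapkapk3 and Atf2. They were chosen by name among 32285 genes, and each had a row in both libraries. There was 1 control library and 1 FGF9‐treated library. Per the study's methods, testes of male C57 LacZ pups, 5 to 8 days old, gave THY-1+ cells that grew on STO fibroblast feeders, and each library held cells of 3 mice that the files do not separate. Both cultures were kept in serum-free medium whose factors were FGF2 at 1 ng/ml, GFRA1 at 150 ng/ml and GDNF at 20 ng/ml, at passages 9 to 12 by the labels' passage entry. The source name of the FGF9‐treated library gives a later last passage, and the methods give passage 12. They were then given 20 ng/ml FGF9 or, by the label of the control, 0 ng FGF for 48 h. That label does not name which FGF it means. The methods describe a change of medium at that point, to FGF9 or albumin, and elsewhere the study describes the control as grown with no growth factors. Both cultures may therefore have been without GDNF and FGF2 for the 48 h, which the labels do not settle.

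Germ cells were barcodes with at least 2000 genes, at most 20% mitochondrial UMIs (unique molecular identifiers, 1 for each captured RNA molecule) and under 40 UMIs of Vim plus S100a6, which mark feeders. This left 4157 of 5312 control barcodes, with a median of 14824 UMIs and 4615 genes, and 4537 of 5959 FGF9‐treated barcodes, with 13067 UMIs and 4256 genes. The sums were 67689739 and 67068085 UMIs, and 10 barcodes occurred among the germ cells of both libraries (0.241% of control germ cells). All 5 germ cell markers were present, with Dazl at 1729 and 1823 CPM (UMIs scaled to a germ cell total of 1000000). The 8 feeder markers summed to 137 and 195 CPM, of which Lgals1 alone had 95.3 and 136.5 CPM. Of the 5 with a mean of at least 5 CPM, 3 were higher and 1 was lower by the limits given below. Among all genes of that level, 6.33% were higher and 6.57% lower. Vim, which the limit on cells used, had 3.65 and 18.5 CPM, while Col1a1 had 22.3 and 12.3 CPM. The 8 markers of other testis cells summed to 11.8 and 15.9 CPM, and Hsd3b1 was at 0 in both.

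p38 kinases sit at the end of a relay of kinases. MAP3K enzymes respond to stress, cytokines or growth factors and phosphorylate the MAP2K kinases MKK3 (Map2k3) and MKK6 (Map2k6), which phosphorylate p38. Active p38 phosphorylates further kinases such as MK2 (Mapkapk2) and MK3 (Mapkapk3) and transcription factors such as ATF2. The isoform p38α (Mapk14) is found in most tissues, and p38β (Mapk11) is its closest relative. p38γ (Mapk12) and p38δ (Mapk13) form the other branch of the family and are less sensitive to the common p38 inhibitors. The pathway is switched by phosphorylation, which RNA counts do not measure.

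The genes of the isoforms lie in pairs. Mapk14 (chr17:28691329-28748406, + strand) and Mapk13 (chr17:28769297-28780233, + strand) were neighbours, 20891 bp apart. Mapk11 (chr15:89142486-89149628, − strand) and Mapk12 (chr15:89130584-89140703, − strand) were 1783 bp apart. The others lie apart, Map2k3 (chr11:60932033-60952811, + strand) and Map2k6 (chr11:110399122-110525522, + strand) on 1 chromosome, and Mapkapk2 (chr1:131053700-131097826, − strand), Mapkapk3 (chr9:107254927-107289877, − strand) and Atf2 (chr2:73816509-73892639, − strand) on 3 more. Reads of Mapk14, Mapkapk2 and Atf2 may be shared with small genes that overlap them on the same strand. The promoters of these 4 genes follow because Mapk13 was lower in FGF9‐treated cells and its neighbour Mapk14 was not, while Mapk12 and Mapk11 were both higher. They come from RefSeq on GRCm38.p6 (mm10), 250 bases before to 50 after an annotated start. They read 5′ to 3′ on the gene's strand, with matches to the searched motifs in capitals. Mapk14 has a further annotated start whose promoter held no match.
Mapk14, chr17:28691092-28691391, + strand: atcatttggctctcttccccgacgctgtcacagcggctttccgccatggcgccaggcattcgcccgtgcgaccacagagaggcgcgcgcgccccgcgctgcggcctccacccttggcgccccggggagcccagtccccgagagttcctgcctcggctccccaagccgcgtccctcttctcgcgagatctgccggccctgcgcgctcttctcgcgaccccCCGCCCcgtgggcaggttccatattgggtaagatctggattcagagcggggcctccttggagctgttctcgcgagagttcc
Mapk13, chr17:28769067-28769366, + strand: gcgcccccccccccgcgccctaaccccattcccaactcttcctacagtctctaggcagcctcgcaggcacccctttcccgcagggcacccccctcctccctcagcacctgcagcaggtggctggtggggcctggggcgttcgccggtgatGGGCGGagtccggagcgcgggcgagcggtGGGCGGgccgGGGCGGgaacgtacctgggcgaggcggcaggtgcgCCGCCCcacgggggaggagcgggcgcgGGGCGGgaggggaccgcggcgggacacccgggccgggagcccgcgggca
Mapk12, chr15:89140654-89140953, − strand: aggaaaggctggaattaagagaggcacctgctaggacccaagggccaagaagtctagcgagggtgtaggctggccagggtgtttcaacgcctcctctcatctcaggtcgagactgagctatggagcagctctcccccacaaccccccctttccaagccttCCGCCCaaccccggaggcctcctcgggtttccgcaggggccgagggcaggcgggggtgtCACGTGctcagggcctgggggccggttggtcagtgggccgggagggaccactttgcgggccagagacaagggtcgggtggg
Mapk11, chr15:89149557-89149856, − strand: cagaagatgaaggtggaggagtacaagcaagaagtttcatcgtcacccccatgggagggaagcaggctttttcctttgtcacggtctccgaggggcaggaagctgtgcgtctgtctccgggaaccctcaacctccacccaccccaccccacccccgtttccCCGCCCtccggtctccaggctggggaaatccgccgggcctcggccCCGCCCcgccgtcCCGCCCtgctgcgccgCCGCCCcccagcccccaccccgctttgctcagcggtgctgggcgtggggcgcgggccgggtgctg

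All 9 members had an entry, with 13 promoters in all. The motifs searched, on both strands, were TGACGTCA (the CRE bound by ATF factors), TGACTCA (AP-1), CCGGAAGT (ETS), CACGTG (E-box) and GGGCGG (GC box, CCGCCC on the other strand). The Mapk13 window held 5 GC boxes and had 78% G plus C, the Mapk11 window held 4, and the Mapk14 and Mapk12 windows held 1 each. Of 32851 promoters of this length, 35.7% held the GC box, as did 8 of the 13 windows of the members. The Mapk12 window had an E-box 31 bases before the start, and 7.15% of all promoters had one. The letters of the CRE (1.79% of all promoters), AP-1 (5.2%) and ETS (3.89%) motifs were in none of the 13 windows. A match is only a run of letters.

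UMIs of all 4 isoforms, of both kinases and of all 3 targets were counted in germ cells of both libraries, though for the lowest genes RNA from other cells was not told apart from their own. Mapk14 was the main isoform, Mapk13 was the next in control cells, and Mapk12 took that place in FGF9‐treated cells. Each library counts a molecule at its 3′ end, so the levels were compared between genes without a division by length, and how well each gene's 3′ end was captured was not tested. With 1 library for each treatment the difference could not be tested, and no p-value is given. Intervals are 95% intervals of counting error alone, and higher and lower describe these libraries, not other cultures.

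Atf2, which encodes a transcription factor that p38 and JNK phosphorylate, had the highest level, 84.6 CPM in control (95% interval 82.4 to 86.8) and 80.9 CPM in FGF9‐treated cells (78.7 to 83.1). Mapk14 followed with 31.2 CPM (29.9 to 32.6) and 33.2 CPM (31.8 to 34.6). Mapk13 had 13.1 CPM (12.2 to 14.0) in control and 5.79 CPM (5.22 to 6.39) in FGF9‐treated cells. It was therefore the third highest member in control, where its interval overlapped that of Map2k3, and the seventh in FGF9‐treated cells.

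Map2k3 had 12.5 CPM (11.7 to 13.4) and 14.1 CPM (13.2 to 15.0). The other kinase, Map2k6, had 7.74 CPM (7.09 to 8.43) and 8.45 CPM (7.77 to 9.18). Map2k3 thus gave 61.8% of the UMIs of the pair in control and 62.5% in FGF9‐treated cells, and the intervals of these shares (59.2 to 64.4 and 60.0 to 64.9) overlapped. Mapkapk2, whose kinase stabilises cytokine mRNAs through its targets, had 10.9 CPM (10.1 to 11.7) and 12.8 CPM (11.9 to 13.6). Its close relative Mapkapk3 had 1.46 CPM (1.19 to 1.78) and 1.83 CPM (1.52 to 2.19). Of the UMIs of these targets, 88.2% and 87.4% were of Mapkapk2.

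Mapk12 had 5.27 CPM (4.74 to 5.85) in control and 8.84 CPM (8.14 to 9.58) in FGF9‐treated cells. Mapk11 had 1.24 CPM (0.990 to 1.54) and 3.09 CPM (2.68 to 3.54). Mapk11 was the lowest member in control, with an interval that overlapped that of Mapkapk3, and lay above Mapkapk3 in FGF9‐treated cells. The intervals of Mapk12 and Map2k6 overlapped in FGF9‐treated cells, and so did those of Map2k3 and Mapkapk2 in both libraries.

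**Figure D1:**
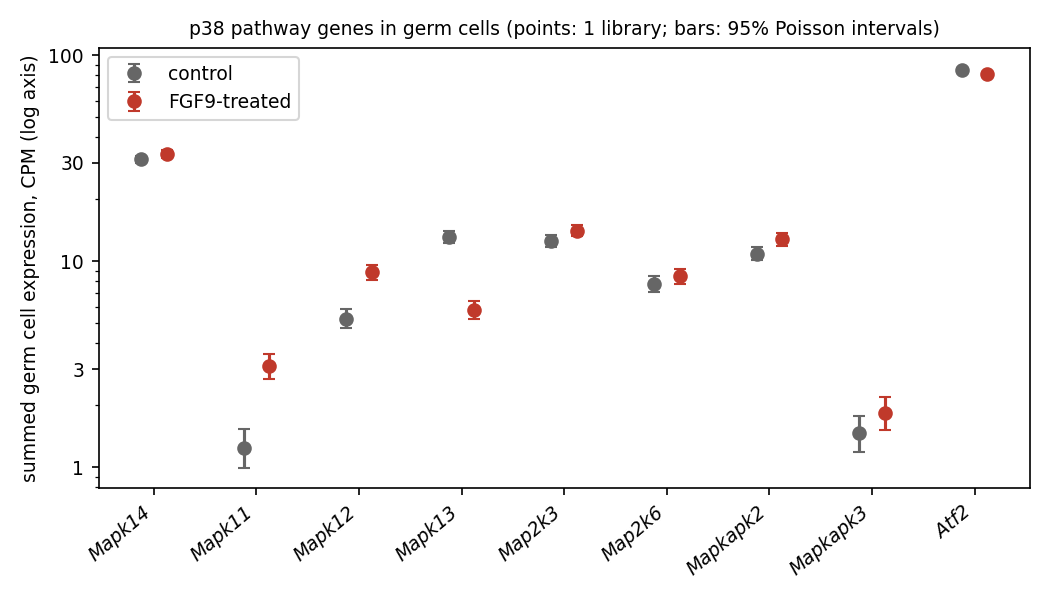
Summed expression of the 9 genes in germ cells, in CPM (log axis), with 1 point per library (grey for control, red for FGF9‐treated) and bars for 95% Poisson intervals. Mapk13 falls from 13.1 to 5.79 CPM while Mapk12 goes from 5.27 to 8.84 and Mapk11 from 1.24 to 3.09, and the other 6 genes sit close together in both libraries.

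Between the libraries, Mapk13 was lower and Mapk12 and Mapk11 were higher in FGF9‐treated cells, while Mapk14, both kinases and all 3 targets differed by less than 0.5 on the log2 scale. The fall of Mapk13, the gene of p38δ, was from 885 to 388 UMIs, a log2 ratio of FGF9‐treated over control of -1.18 (-1.35 to -1.0), or 0.442 times the control level. The rise of Mapk12, the gene of p38γ, was from 357 to 593 UMIs, a log2 ratio of 0.75 (0.55 to 0.94). Mapk11, the gene of p38β, went from 84 to 207 UMIs, a log2 ratio of 1.31 (0.94 to 1.70).

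A gene was called where its mean over the libraries was at least 5 CPM, its log2 ratio was at least 0.5 in size and its interval left out 0. Of 10263 genes with that mean, 12.9% were called, 6.33% higher and 6.57% lower. Among the 9 members, 7 reached the mean. Of these, Mapk12 was called higher, Mapk13 was called lower, and 5 were not called. The median log2 ratio of the 7 was 0.13, beside -0.03 for all genes tested. Mapk13 stood at percentile 0.633 of the 10263 ratios and Mapk12 at percentile 96.8. Mapk11 and Mapkapk3 were below 5 CPM and stayed out of these counts.

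Of the genes that were not called, Mapk14 had a log2 ratio of 0.09 (0.003 to 0.18), Map2k3 of 0.17 (0.03 to 0.31) and Mapkapk2 of 0.23 (0.08 to 0.37). Map2k6 had 0.13 (-0.05 to 0.30) and Atf2 had -0.07 (-0.12 to -0.01). Mapkapk3 had 0.33 (-0.07 to 0.72). The intervals of Mapk14 and Atf2 left out 0 but lay wholly within 0.2 of it, and those of Map2k6 and Mapkapk3 held 0. In cells thinned to 5000 UMIs the log2 ratio of Mapk14 was -0.01.

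The 4 isoforms together had the same summed level in both libraries, 50.8 CPM (3438 UMIs) in control and 50.9 CPM (3414 UMIs) in FGF9‐treated cells, a log2 ratio of 0.003 (-0.07 to 0.07). What differed was their make-up. Mapk13 gave 25.7% of isoform UMIs in control (24.3 to 27.2) and 11.4% in FGF9‐treated cells (10.3 to 12.5). Mapk12 went from 10.4% (9.38 to 11.5) to 17.4% (16.1 to 18.7), Mapk11 from 2.44% (1.95 to 3.02) to 6.06% (5.29 to 6.92), and Mapk14 from 61.4% (59.8 to 63.1) to 65.2% (63.6 to 66.8). None of these pairs of intervals overlapped. The sum of Map2k3 and Map2k6 had a log2 ratio of 0.15 (0.05 to 0.26), and that of Mapkapk2 and Mapkapk3 of 0.24 (0.10 to 0.37).

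**Figure D2:**
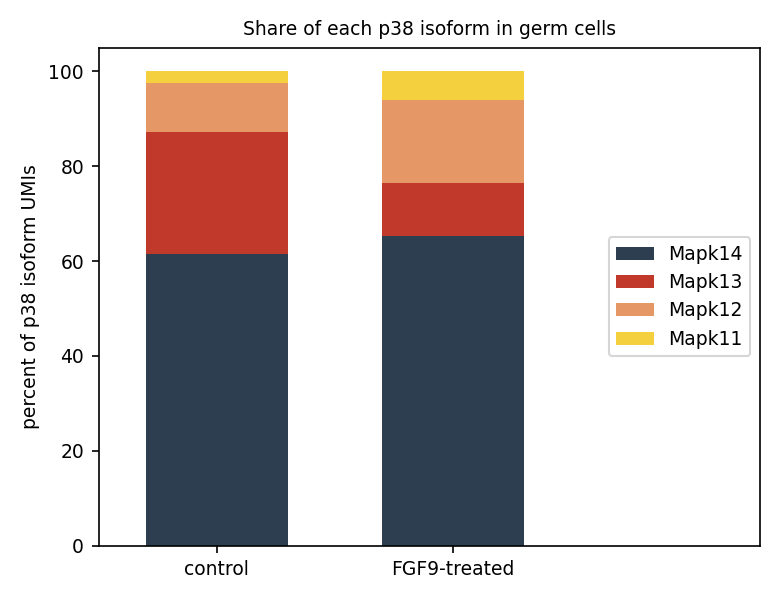
Make-up of the p38 isoform RNA in germ cells, as the percent of the summed UMIs of the 4 isoforms (y axis) in the control and the FGF9‐treated library (bars, 1 library each). The Mapk13 part shrinks from 25.7% to 11.4% while the Mapk12 and Mapk11 parts grow, and Mapk14 stays the largest part at 61.4% and 65.2%.

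Seen cell by cell, most cells showed no more than 1 molecule of an isoform. Because control cells were deeper, each cell was cut down by random draws to 5000 UMIs, and 16 control and 22 FGF9‐treated cells that were shallower dropped out. At this depth any isoform had a UMI in 21.7% of 4141 cells in control and 21.2% of 4515 in the FGF9‐treated library. Mapk13 was found in 5.39% of control (4.72 to 6.12) and 2.61% of FGF9‐treated cells (2.17 to 3.12), and unthinned in 15.0% and 6.57%. Mapk14 was found in 14.2% and 14.0% of thinned cells and in 37.9% and 36.0% of unthinned cells. Cells with both Mapk14 and Mapk13 made up 0.894% and 0.354%.

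Among the other members in thinned cells, Atf2 was found most often. Mapk12 was found in 2.90% of control and 4.47% of FGF9‐treated cells, and Mapk11 in 0.676% and 1.48%. Map2k3 was found in 6.35% and 7.13%, Map2k6 in 3.94% and 3.85%, Mapkapk2 in 5.19% and 6.29%, Mapkapk3 in 0.797% and 0.842%, and Atf2 in 33.1% and 31.9%.

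Feeder-like cells, with 40 or more UMIs of Vim plus S100a6, gave the share in another cell type. They had a median of 20517 UMIs (31 control cells) and 26481 UMIs (63 FGF9‐treated cells). Mapk13 was absent from all of them after thinning, 0 of 31 and 0 of 63 cells. By a limit of 3 counts, which is not an interval, this allows a share of up to 9.68% and 4.76%. The shares of thinned germ cells, 5.39% and 2.61%, lie under these limits. The counts of 0 after thinning therefore cannot tell feeder-like cells from germ cells. Without thinning it was in 1 of 31 (3.23%) and 0 of 63 cells, below the 15.0% and 6.57% of the shallower germ cells. The interval of 1 of 31 reached 16.7%, above the share in control germ cells. Several other members were higher in feeder-like cells. There Map2k3 had 59.2 and 44.5 CPM, Mapkapk2 47.7 and 35.4 CPM, and Mapkapk3 20.2 and 15.0 CPM, all above the germ cell levels, while Mapk14 had 13.0 and 4.83 CPM. What part feeder RNA had in the germ cell counts of Map2k3, Mapkapk2 and Mapkapk3 was not tested. Barcodes with under 2000 genes had a median of 2066.5 and 1982 UMIs, and of 80.6% and 65.2% mitochondrial UMIs. They had Mapk13 at 5.08 CPM (12 UMIs) in control and 2.93 CPM (8 UMIs) in the FGF9‐treated library. The total that CPM divides by includes the mitochondrial UMIs, so these levels are not on a par with those of germ cells.

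Mapk13 was unevenly spread among cells. In control, its 885 UMIs lay in 625 cells, of which 56 had 3 or more UMIs, and the highest count in a cell was 7. Map2k3, with nearly as many UMIs (848), was found in 760 cells, of which 4 had 3 or more, and it never exceeded 3. In FGF9‐treated cells 19 of 298 cells with Mapk13 had 3 or more UMIs, against 3 of 537 cells with Mapk12. The 56 control cells with 3 or more Mapk13 UMIs had a median of 18682 UMIs, and the 19 FGF9‐treated cells had 20466, both above the medians of their libraries.

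To place each gene along the path from stem cell to differentiating spermatogonium, cells with a UMI of a named gene after thinning to 5000 were set against the other cells of their library. The genes were Gfra1 with Ret (the GDNF receptor of stem cells), Etv5 (a self-renewal factor), Neurog3 and Sox3 (progenitors), Sohlh1 and Kit (differentiating cells) and Stra8 (retinoic acid response), and G1, S and G2/M calls were added. A cell without such a UMI may still express the gene. Of 180 values, for 9 members in 10 states and 2 libraries, 4 had a log2 ratio of at least 0.5 in size with an interval that left out 0. They were Mapk13 in Sohlh1 cells of both libraries and in Kit cells of control, and Mapk11, which is below 5 CPM, in Etv5 cells of the FGF9‐treated library. Among the 7 members of at least 5 CPM this makes 3 of 140 values, and over all genes of that level 2.32% of values were called. That share varied by state, from 0.176% in Sohlh1 cells of control to 8.43% in Gfra1 and Ret cells of control. It was 1.59% in Sohlh1 cells of the FGF9‐treated library and 1.89% in Kit cells of control. The pooled count therefore does not show whether the 7 members stand apart. Cells of 1 library share their source, so these values describe the libraries.

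Mapk13 was thus higher in the cells with Sohlh1, a transcription factor needed for spermatogonia to differentiate. In control it had 15.2 CPM (593 UMIs) in 2378 cells with Sohlh1 and 10.2 CPM (292 UMIs) in 1763 cells without, a log2 ratio of 0.57 (0.36 to 0.78). In FGF9‐treated cells it had 8.63 CPM (205 UMIs) in 1535 cells with Sohlh1 and 4.23 CPM (183 UMIs) in 2980 cells without, a log2 ratio of 1.03 (0.73 to 1.32). Of all genes with at least 5 CPM, 0.0879% were called higher in these cells in control and 0.558% in the FGF9‐treated library. Mapk13 had the 4th highest ratio of 10237 genes in control and the 4th highest of 10216 in FGF9‐treated cells, in rankings that include Sohlh1, which chose the cells.

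The level of Mapk13 followed the number of Sohlh1 molecules. In control it was 10.2, 13.7, 15.1 and 18.6 CPM in cells with 0, 1, 2 and 3 or more Sohlh1 UMIs (1763, 1175, 655 and 548 cells). In FGF9‐treated cells it was 4.23, 7.37, 10.1 and 12.3 CPM (2980, 973, 381 and 181 cells). Only the step between 0 and 1 UMI had intervals that did not overlap, in both libraries. Those of 0 and of 3 or more UMIs did not overlap either. Mapk14 over the same groups stayed between 29.2 and 32.7 CPM in control and between 30.6 and 34.1 CPM in FGF9‐treated cells. The median depth of the groups was 14770 to 14952.5 UMIs in control and 12785.5 to 13771 UMIs in FGF9‐treated cells. Feeder markers summed to 138 CPM with and 136 CPM without Sohlh1 in control, and to 159 and 214 CPM in the FGF9‐treated library. Their part in the result was not tested.

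**Figure D3:**
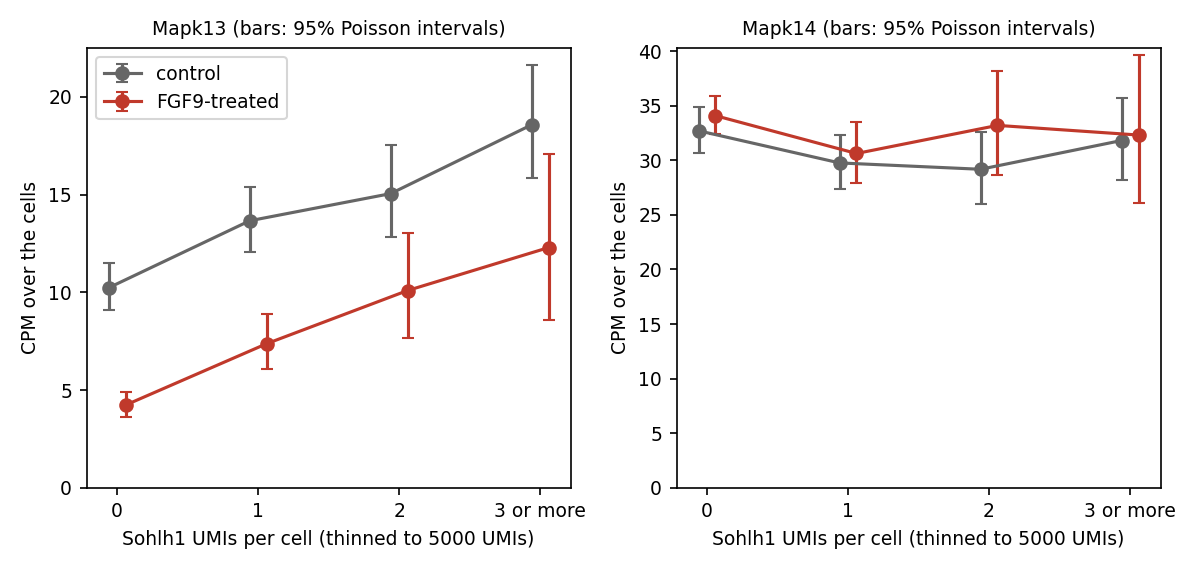
Mapk13 (left) and Mapk14 (right) in germ cells grouped by Sohlh1 UMIs per cell after thinning to 5000 UMIs (x axis), as CPM over the cells of each group (y axis), for control (grey) and FGF9‐treated cells (red), 1 library each, with bars for 95% Poisson intervals. Mapk13 goes from 10.2 to 18.6 CPM in control and from 4.23 to 12.3 CPM in FGF9‐treated cells, while Mapk14 shows no such course.

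In cells with Kit, the stem cell factor receptor that marks differentiating spermatogonia, Mapk13 was higher in control and could not be read in the FGF9‐treated library. In control the 240 cells with Kit had 19.2 CPM of Mapk13 against 12.7 CPM in the others, a log2 ratio of 0.60 (0.24 to 0.94), where 0.811% of all genes were called higher. With cells thinned to 8000 UMIs this ratio was 0.35 and no longer called. In FGF9‐treated cells only 55 cells had Kit and they held 3 UMIs of Mapk13, a log2 ratio of -0.80 (-3.08 to 0.76), an interval that also holds the control value. At the other end of the path, cells with both Gfra1 and Ret had less Mapk13, 10.1 against 13.1 CPM in control and 4.18 against 5.98 CPM in FGF9‐treated cells, but their intervals held 0 (-1.38 to 0.47 and -1.12 to 0.03). Cells with Etv5 went the other way, with 19.4 against 13.0 CPM in control and 6.77 against 5.64 CPM in FGF9‐treated cells, and their intervals held 0 too (-0.44 to 1.42 and -0.15 to 0.66). In control, the Gfra1 and Ret cells and the Etv5 cells held only 11 UMIs of Mapk13 each. As all these intervals held 0, the stem cell genes settled no direction for Mapk13. In control, Mapk13 was also slightly lower in Neurog3 cells, -0.28 (-0.55 to -0.02), and in Sox3 cells, -0.22 (-0.43 to -0.01). In FGF9‐treated cells these ratios were 0.10 (-0.55 to 0.68) and 0.16 (-0.24 to 0.55). By phase, Mapk13 had 0.27 (0.07 to 0.47) in S cells of control and 0.24 (-0.06 to 0.53) in those of the FGF9‐treated library. In G2/M cells it had -0.16 (-0.36 to 0.03) and -0.31 (-0.61 to -0.01). None of these was called.

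The main isoform had no preferred state. Mapk14 was within 0.28 of 0 on the log2 scale in all 20 comparisons of a state with the other cells, and its interval left out 0 once, in Neurog3 cells of the FGF9‐treated library at 0.28 (0.04 to 0.51). Mapk12 had intervals that held 0 in all 20. Mapk11 was called in Etv5 cells of the FGF9‐treated library, with 4.26 against 2.91 CPM (39 and 168 UMIs) and a log2 ratio of 0.55 (0.01 to 1.06), where 0.157% of all genes were called higher. It was below 5 CPM, it fell under the limit in each of 4 alternatives, and among cells called G1 its ratio was -1.22. In Sohlh1 cells of the same library Mapk11 had -0.50 (-0.96 to -0.05).

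Among the kinases, Map2k6 followed the cell cycle calls in both libraries. In cells called G2/M it had 8.58 CPM against 6.66 in the others in control, a log2 ratio of 0.37 (0.10 to 0.63). In FGF9‐treated cells it had 9.66 against 7.30 CPM, a log2 ratio of 0.40 (0.16 to 0.65). In cells called S it was lower, at -0.26 (-0.54 to 0.01) and -0.43 (-0.69 to -0.18). In Sohlh1 cells of control it had -0.26 (-0.51 to -0.002). These values were under 0.5 and not called. Map2k3 had -0.25 (-0.45 to -0.05) in G2/M cells of control but -0.07 (-0.26 to 0.12) in those of the FGF9‐treated library, where the interval held 0. Phases were cut from a score, and 20.5% of cells in control and 18.5% in the FGF9‐treated library lay within 0.05 of a limit. G1 was called in 8.77% and 9.61%, S in 36.2% and 45.1%, and G2/M in 55.0% and 45.2% of cells.

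Mapkapk2, Mapkapk3 and Atf2 were spread over the states without a call. The intervals that left out 0 were those of Mapkapk2 in Sohlh1 cells of the FGF9‐treated library, at -0.29 (-0.51 to -0.08), and of Atf2 in its Kit cells, at 0.34 (0.02 to 0.64).

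The states themselves differed in size between the libraries, and Mapk13 was lower within each of them. Cells with Sohlh1 made up 57.4% of control (55.9 to 58.9) and 34.0% of FGF9‐treated cells (32.6 to 35.4), and cells with Kit 5.80% and 1.22%. Within cells with Sohlh1 the log2 ratio of Mapk13, FGF9‐treated over control, was -0.81 (-1.05 to -0.58), and within cells without it was -1.27 (-1.55 to -1.0). The cells with Sohlh1 were not alike in its level, since 548 of 2378 in control and 181 of 1535 in the FGF9‐treated library had 3 or more UMIs. Over 20 subsets, the cells inside and outside each of the 10 states, the interval lay below 0 in 20. The ratio ranged from -2.52 in cells with Kit (76 and 3 UMIs) to -0.65 in cells called G1. The subsets overlap and come from the same libraries, so they are not 20 separate observations.

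For the other isoforms, Mapk12 was higher in all 20 subsets by its value (0.57 to 1.24) and its interval lay above 0 in 16. Mapk11 ranged from 0.79 to 2.41, with 17 intervals above 0. Mapk14 ranged from -0.24 to 0.36, with 4 intervals above 0 and 16 that held 0. Of the kinases, Map2k3 had 9 intervals above 0 and Map2k6 had none in either direction. Mapkapk2 had 10 above 0, Mapkapk3 had 2, and Atf2 had 9 below 0.

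**Figure D4:**
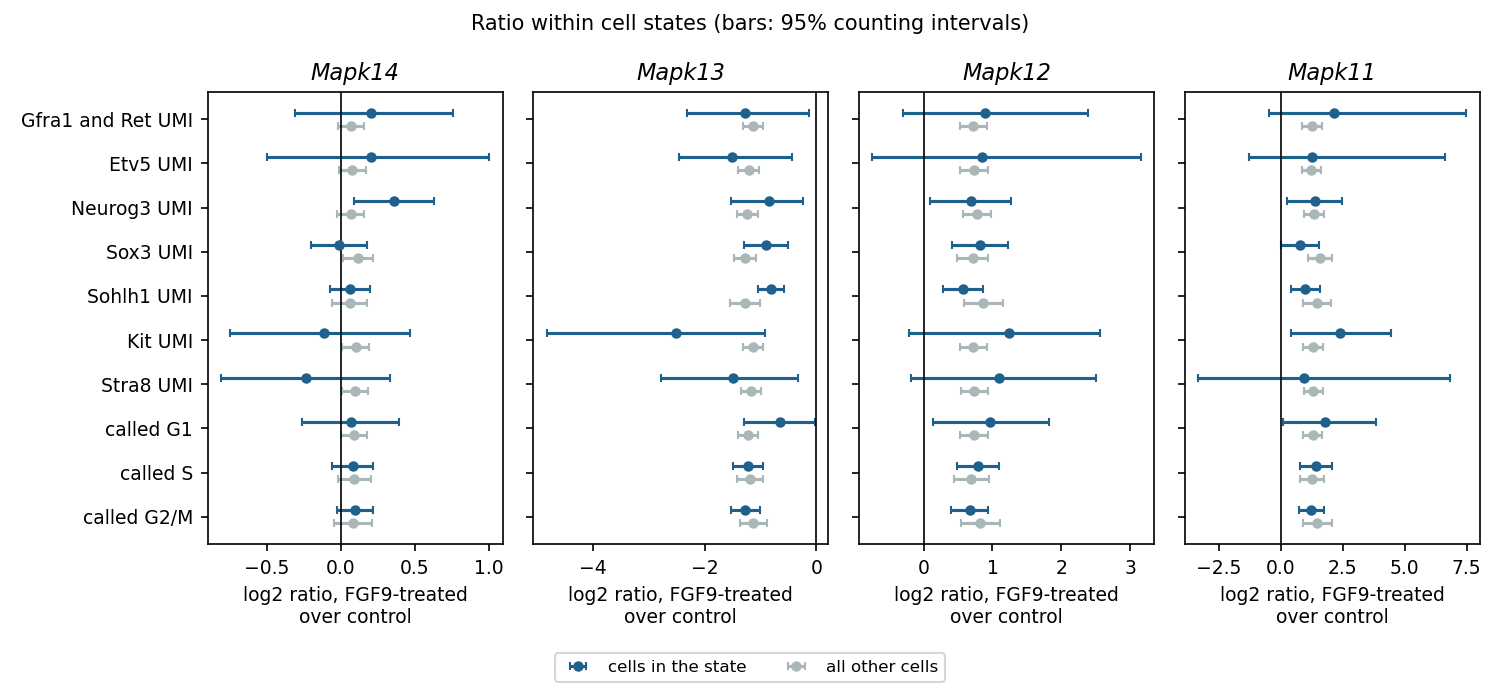
Log2 ratio of FGF9‐treated over control CPM (x axis, a separate scale per gene) for Mapk14, Mapk13, Mapk12 and Mapk11 within cells that have a UMI of the gene or the phase named on the y axis (blue) and within all other cells (grey), with bars for 95% counting intervals and 1 library per treatment. All 20 Mapk13 intervals lie below 0, from -2.52 to -0.65, while Mapk12 and Mapk11 points lie above 0 and Mapk14 points lie around 0.

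Around these 9 genes, the rest of the pathway was read from lists of named genes, and RNA of nearly all of them was found. Of 17 MAP3K enzymes, adaptors and activators upstream of p38, 15 were tested, 2 were called higher and 2 lower, where 6.33% and 6.57% of all genes were, with a median log2 ratio of 0.02 beside -0.03 for all genes. Map2k4, a kinase that activates JNK and can also act on p38, went from 28.2 to 53.5 CPM (0.92, 0.84 to 1.00). Map3k20, which encodes the stress kinase ZAK, went from 9.14 to 15.2 CPM (0.73, 0.59 to 0.88). Gadd45g, whose protein activates the MAP3K MEKK4, went from 7.34 to 3.37 CPM (-1.12, -1.36 to -0.89). The other lower gene, named after its value was seen, was Map3k10 (-0.54, -0.65 to -0.43).

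Of 6 phosphatases that act on p38, 5 were tested and 1 was called lower, beside 6.57% of all genes, with a median of 0.06. The lower gene was Dusp16, which encodes a phosphatase of JNK and p38, at 9.13 and 5.83 CPM (-0.65, -0.83 to -0.46). Dusp1 had 0.30 (0.18 to 0.41) and Dusp10 had 0.24 (0.06 to 0.42), both not called. The phosphatase below 5 CPM, named after its value was seen, was Dusp8, at 4.59 and 1.51 CPM (-1.61, -1.95 to -1.28). Of 18 further substrates, 16 were tested, 2 were called higher and 4 lower, beside 6.33% and 6.57% of all genes, with a median of -0.12. Cdc25b, a phosphatase that opens the way to mitosis, went from 4.71 to 9.42 CPM (1.00, 0.80 to 1.20), and Zfp36, which encodes an mRNA decay factor controlled by MK2, went from 11.4 to 18.6 CPM (0.71, 0.58 to 0.84). Mknk1, a kinase of the translation factor eIF4E, went from 15.3 to 9.44 CPM (-0.69, -0.84 to -0.55). The other 3 lower genes, named after their values were seen, were Mapkapk5 (-0.68), Eef2k (-0.62) and Ddit3 (-0.51).

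The parallel MAPK branches were read in the same way. Of the 7 genes of the ERK module none was called, beside 12.9% of all genes, and the median was 0.04. The largest ratios were -0.34 (-0.37 to -0.30) for Map2k2, 0.23 (0.16 to 0.30) for Map2k1 and -0.14 (-0.22 to -0.07) for Mapk3. Of the 5 genes of the JNK module, 2 were called higher and none lower, beside 6.33% and 6.57% of all genes, with a median of -0.11. They were Map2k4, already given, and Mapk9, the gene of JNK2, at 19.9 and 33.8 CPM (0.77, 0.67 to 0.86). The next in size was Map2k7 (-0.16, -0.24 to -0.08). These lists were chosen with earlier results of the same libraries known and are read as counts only.

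Most of the tested genes beside Mapk13 were not called lower with it. Within 250 kb lay 14 other protein-coding genes with a row in the libraries, and only 6 of them were tested. Of these none was called higher and 1 was called lower, beside 6.33% and 6.57% of all genes. The tested genes include AC170998.1 (0.20, 0.002 to 0.39), which lies inside Mapk14 on the same strand. Mapk14 itself, Srpk1 (-0.02, -0.06 to 0.01) and Stk38 (0.05, -0.02 to 0.11) lay close to 0. Kctd20 had -0.27 (-0.32 to -0.21), and Pxt1, a gene of male germ cells, had -0.81 (-0.89 to -0.73). Slc26a8, which was below 5 CPM and not tested, had -0.58 (-0.93 to -0.24).

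The genes whose pattern was most like that of Mapk13 were sought over 18 groups of cells, the 2 libraries each divided by phase and by 3 ranges of the balance between differentiating and stem cell genes. By Pearson's r of log2(CPM + 1), these were Eif4ebp1 (0.920), Tle6 (0.910), Fbxl7 (0.905), Prr19 (0.898) and Polr3e (0.892). Their log2 ratios, FGF9‐treated over control, were -0.44, -0.90, -1.05, -0.53 and -0.54. Since the fall of Mapk13 between the libraries is part of the pattern they were chosen on, this shared direction was selected for. The groups share libraries, so r describes likeness only. The p38 members themselves were far from it, with r of 0.33 for Atf2, -0.29 for Mapk14 and -0.65 for Mapk12.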

How the data were processed

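The 2 libraries were made with the 10x Chromium 3′ kit v3.1. Per the study's methods and the file headers, the authors aligned reads to mm10 with Cell Ranger 3.1.0 and deposited UMI counts per gene for 5312 and 5959 barcodes. Seurat 3.1 is named in the submitters' notes. Positions came from GENCODE M21, in which 32235 of the 32285 genes were found, and the KIT tag row was left out. No doublet caller was run.

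Counts were summed over germ cells and divided by their total (CPM). Log2 ratios have exact conditional binomial 95% intervals, CPM exact Poisson intervals and shares Clopper-Pearson intervals, all for counting error only. A share of 0 allows up to 3 counts. Phases were called with scanpy 1.11.5 from 43 S and 54 G2/M genes on cells thinned to 5000 UMIs. Python 3.11.15, numpy 2.4.6, scipy 1.17.1 and pandas 2.3.3 were used, and the ratio code was tested on simulated data. Members and lists were chosen with earlier results of these data known. The genes named are all 9 members, up to 3 of each list with the largest ratios at 5 CPM or more, protein-coding genes within 250 kb of Mapk13 and the 5 most like it. Genes said to be named after their values were seen are further to these. Alternatives changed the limits on cells, the scaling, the weight of cells, the depth, the phase, the level filter and the fold. For Mapk13 likeness, 1 CPM was added.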

Additional observations from a re-analysis of the deposited data

How the results depend on the processing

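Mapk13 was lower in FGF9‐treated cells under all alternatives run for it, with log2 ratios from -1.44 to -0.65. It was -0.65 in cells called G1, and after the data were seen depth ranges were added, which gave -1.44 in the shallowest and -1.0 in the deepest cells. In cells with the fewest cell cycle UMIs, also added then because few cells were called G1, it was -1.28. Mapk12 ranged from 0.64 to 0.96 and Mapk11 from 1.13 to 1.78, and each kept its direction. Mapkapk2 ranged from 0.10 to 0.35. Map2k6 ranged from -0.003 to 0.57 and Mapkapk3 from -0.15 to 0.73, so both passed 0.5 in an alternative. Mapk14 (-0.01 to 0.15), Map2k3 (-0.09 to 0.22) and Atf2 (-0.09 to 0.01) lay on both sides of 0. A mean of at least 20 CPM left 6616 genes, of which 536 were called (266 higher, 270 lower), and 0 members, since only 2 were then tested. Without a filter on level 3849 of 24316 genes were called (1884 higher, 1965 lower), and at a log2 ratio of 0.3 there were 2906 (1274 higher, 1632 lower). With the median ratio set to 0 the split was 725 higher and 587 lower. Of the ratios between states under the alternatives, 518 were marked as the same, 75 as moved and 1 as reversed. The reversed ratio was that of Mapk11 in Etv5 cells of the FGF9‐treated library, at -1.22 in cells called G1. Mapk13 in Sohlh1 cells over the others ranged from 0.54 to 1.07 in control and from 0.64 to 1.65 in FGF9‐treated cells, except that in control cells with 1 Sohlh1 UMI against 0 gave 0.42. The causes of these differences were not tested. No paired analysis was possible because each treatment has 1 library, and both are labelled replicate 1. Mapk11 and Mapkapk3, with 84 to 207 and 99 to 123 UMIs, limit what could be seen per state.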
